A study of Mus musculus with 8 samples.

Results

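The 10 genes described here encode the factors that carry ribosomes through elongation, stop them at stop codons and take them apart: Eef1a1, Eef1b2, Eef1d, Eef1g, Eef2, Etf1, Gspt1, Abce1, Pelo and Hbs1l. They were chosen by gene symbol, and all 10 were present among the 23845 symbols of each table. The mouse embryonic stem cells (mESC), a pluripotent and self-renewing cell type kept in culture, were at passages 5 to 10, either knocked out for METTL5 (METTL5 KO, called KO) or wild type (WT). METTL5 is a methyltransferase that places N6-methyladenosine on the RNA of the small ribosomal subunit. Ribosome-protected fragments were sequenced from 2 KO and 2 WT libraries (Ribo-seq, monoribosomes purified on a sucrose gradient), and total RNA from 2 KO and 2 WT libraries (RNA-seq, cells at 80% confluence). Per the labels, all libraries were made with a small RNA kit (NEB), and the RNA-seq samples are described both as mRNA and as total RNA. The series calls the replicates biological. The KO libraries share 1 line tag in their deposited names, and the number of KO clones was not given in the sources used here. The p-values therefore measure the spread between these libraries.

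In elongation, eEF1A (Eef1a1) brings each aminoacyl-tRNA to the ribosome with GTP, the eEF1B complex (Eef1b2, Eef1d and Eef1g) recharges eEF1A with GTP, and eEF2 (Eef2) moves the ribosome on by a codon. At a stop codon eRF1 (Etf1) releases the peptide together with the GTPase eRF3a (Gspt1), and the ATPase ABCE1 (Abce1) splits the ribosome into its subunits. PELO (Pelo) and HBS1L (Hbs1l), relatives of eRF1 and eRF3, take the place of the release factors on ribosomes that have stalled, and ABCE1 splits those ribosomes too. Many mRNAs of the elongation machinery begin with a run of pyrimidines, the terminal oligopyrimidine (TOP) element, through which the mTOR pathway controls their translation.

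The longest unbroken run of C and T that starts within the first 100 bases of any annotated coding transcript, followed to its end, is shown for 3 elongation factors and, for contrast, for a recycling and a rescue factor. The sequences are those of GENCODE M21 transcripts on GRCm38, the assembly behind mm10, written 5′ to 3′ in 30 bases with the run in capitals.
Eef1a1: gccttggacgTTCTTTTTCgcaacgggttt
Eef1g: actgCTCTCTCCTTTCCTCCTCCCTTgtct
Eef2: gacgtcagcggTCTCTTCCgccgcagccgc
Abce1: aacgtcatcaCTCCCTCCagggcgccgact
Pelo: gtcagccggTTTCgcggggccggcgactgg
They lie at chr9:78481654-78481683 (minus strand), chr19:8967123-8967152 (plus), chr10:81176634-81176663 (plus), chr8:79711711-79711740 (minus) and chr13:115090157-115090186 (minus). The run was 9 bases long in Eef1a1, 15 in Eef1d, 22 in Eef1g and 8 in Eef2, and it was 6 in Etf1, 7 in Gspt1, 8 in Abce1, 4 in Pelo and 7 in Hbs1l. Of 21873 coding genes, 51.4% held a run of at least 8 bases by this rule, 37.7% at least 9, 5.57% at least 15 and 1.44% at least 22. Annotated starts can lie upstream of the starts that cells use (the run of Eef1a1 starts at base 52 of its transcript and that of Eef1g at base 87), so a run is a description of these letters and not a mapped TOP element.

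The deposited tables held RSEM expected counts, which split reads shared between genes. Totals were 9322662 and 11487964 in the KO and 10466185 and 8401463 in the WT footprint libraries, against 152195 and 173389 in the KO and 211353 and 219567 in the WT RNA-seq libraries. A level of 3 counts corresponded to 0.261 to 0.357 CPM (the count divided by its library's total, on 1 common scale) in footprints and to 13.7 to 19.7 CPM in RNA-seq, which covers counting error only. Mettl5 had 4.08 and 4.79 CPM in KO and 41.2 and 45.9 CPM in WT footprints (edgeR log2 fold change -3.27, SE 0.22, adjusted p = 0.00131), and 256 and 317 CPM in KO and 397 and 601 CPM in WT RNA-seq. Rn45s, the ribosomal RNA precursor, took 10.6% and 15.2% of KO and 7.58% and 10.9% of WT footprint counts, which enters every CPM value, while the tests used TMM factors. All 10 stem cell markers exceeded 3 counts in each of the 4 footprint libraries, with summed footprints of 7150 to 7325 CPM in KO and 5748 to 7446 CPM in WT. In RNA-seq 6 of them were at or under 3 counts in both KO libraries (Sox2, Esrrb, Klf4, Tdgf1, Utf1 and Lin28a) and 2 in both WT libraries (Klf4 and Utf1), and their sums were 263 to 292 CPM in KO and 653 to 669 CPM in WT. In footprints fibroblast markers summed to 368 to 505 CPM in KO and 90.6 to 150 CPM in WT (Lum at or under 3 counts in both, Dcn in WT), endoderm markers to 829 to 995 CPM in KO and 1510 to 1556 CPM in WT (Afp at or under 3 counts in both), and mesoderm markers to 16.7 to 26.0 CPM in KO and 2.65 to 3.96 CPM in WT (Tbx6 at or under 3 counts in KO, and T, Fgf8, Lhx1 and Gsc in WT). Their part in the results below was not tested, and in bulk samples fewer cells of a type and less RNA per cell cannot be told apart.

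None of the 10 factors passed the test in footprints in the fit of genotype alone, and Abce1 and Etf1 passed it as lower in KO when the replicate number was added as a block, a fit that called 24% of all genes tested (12.7% higher and 11.3% lower). In edgeR's quasi-likelihood test of KO against WT 0 of 10 had a Benjamini-Hochberg adjusted p below 0.05, where 2.44% of the 12315 genes tested were called, 1.83% as higher in KO and 0.617% as lower. One, Abce1, had an unadjusted p below 0.05, against 19.4% of all genes tested, and DESeq2 and limma also called 0 of the 10. Fold changes of 9 of the 10 were negative, from -0.54 to 0.05 on the log2 scale with a median of -0.11, while the median over all genes tested was 0.006 and 49.2% were negative. With chromosome medians removed Eef2 stood at -0.02, and 10 of 10 were negative. The sign count rested in part on 1 WT library. Without WT replicate 1 Eef1a1, Eef1b2, Eef1d, Eef1g and Eef2 stood at 0.19, 0.30, 0.05, 0.47 and 0.42. That fit sets both KO replicates against WT replicate 2 alone, so replicate number and genotype were not balanced in it. The members together took 1.93% and 1.75% of the KO footprint counts and 2.39% and 1.64% of the WT footprint counts. WT replicate 1 held the highest share and WT replicate 2 the lowest, so the KO libraries lay between the WT libraries.

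**Figure D1:**
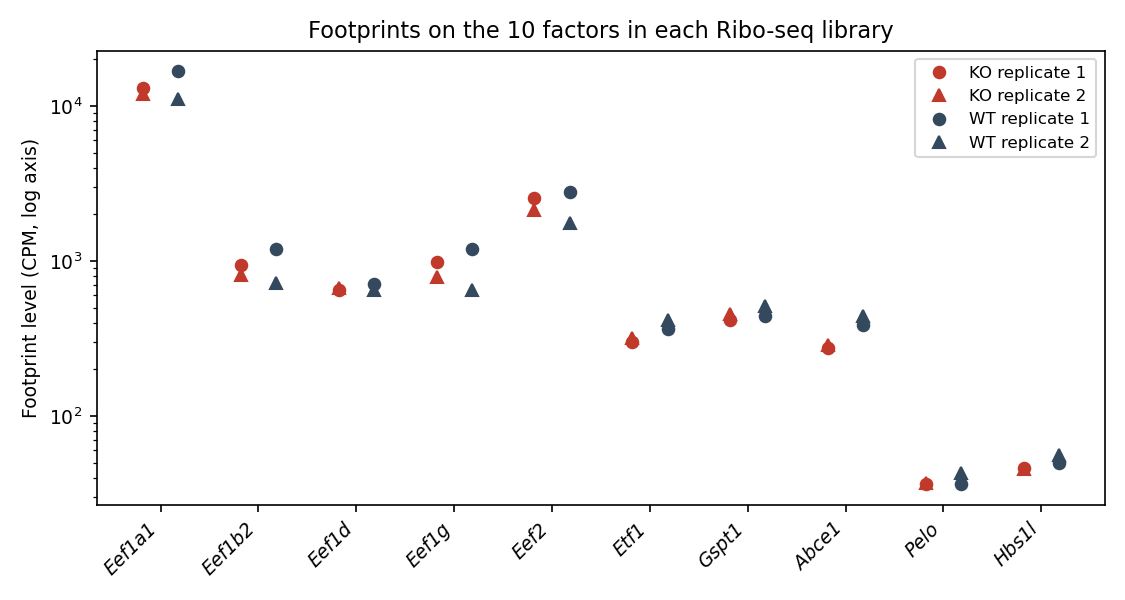
Footprint level of each factor in CPM on a log axis, with KO libraries in red left of the WT libraries in dark blue; circles are replicate 1 and triangles replicate 2. Eef1a1 stands at 11138 to 16742 CPM, and for Abce1, Etf1 and Hbs1l both KO libraries lie below both WT libraries.

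Eef1a1 carried most of these footprints. It had 13114 and 11932 CPM in KO and 16742 and 11138 CPM in WT, and it made up between 67.8% and 70.0% of the members' footprints in each of the 4 libraries. The KO values fell inside the WT range (log2 fold change -0.14, SE 0.22, adjusted p = 0.778). Eef2 had 2566 and 2124 CPM in KO and 2782 and 1768 CPM in WT, and the WT range again enclosed the KO libraries (0.05, SE 0.23, adjusted p = 0.930).

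The 3 subunits of the exchange complex stood at similar levels. Eef1b2, the subunit that exchanges the nucleotide on eEF1A, had 949 and 818 CPM in KO and 1199 and 725 CPM in WT (log2 fold change -0.11, SE 0.23, adjusted p = 0.837). Eef1g, the structural gamma subunit, had 990 and 785 CPM in KO and 1201 and 649 CPM in WT (-0.05, SE 0.27, adjusted p = 0.942). Both WT ranges enclosed the KO libraries. Eef1d, the delta subunit, a further exchange factor, had 655 and 667 CPM in KO and 712 and 647 CPM in WT, with overlapping libraries (-0.03, SE 0.16, adjusted p = 0.950).

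Both termination factors were measured with 2802 to 5253 footprint counts per library. Etf1, the stop codon reader, had 301 and 321 CPM in KO and 366 and 414 CPM in WT. The KO libraries lay below the WT libraries, but the difference did not pass the test (log2 fold change -0.31, SE 0.16, adjusted p = 0.330). With the replicate block it did (-0.31, adjusted p = 0.0394 in edgeR). Gspt1 had 415 and 457 CPM in KO and 442 and 513 CPM in WT, with overlapping libraries (-0.11, SE 0.17, adjusted p = 0.765).

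Abce1, the recycling ATPase, had the fold change farthest from 0 among the 10 in this fit. It had 275 and 285 CPM in KO and 386 and 440 CPM in WT, so the groups did not overlap, yet the difference did not pass the test (log2 fold change -0.54, SE 0.16, unadjusted p = 0.00735, adjusted p = 0.112). With the replicate block it did (-0.54, adjusted p = 9.71e-05 in edgeR). The Abce1 gene occupies positions 79683462 to 79711740 of chromosome 8 (minus strand), and the median log2 fold change of the 676 tested genes of chromosome 8 was -0.22. With chromosome medians removed, Abce1 stood at -0.32 (SE 0.16, adjusted p = 0.356), closer to 0 than Etf1 at -0.38 (SE 0.16, adjusted p = 0.285).

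The rescue pair had far fewer footprints. Pelo, which enters the empty site of stalled ribosomes, had 36.7 and 36.8 CPM in KO and 36.3 and 42.6 CPM in WT (log2 fold change -0.09, SE 0.18, adjusted p = 0.838), and the libraries overlapped. Hbs1l, its GTPase partner, had 46.0 and 45.3 CPM in KO and 49.7 and 55.7 CPM in WT (-0.19, SE 0.17, adjusted p = 0.581). In all, Etf1, Abce1 and Hbs1l were the 3 of 10 members whose KO libraries lay below both WT libraries, and none lay above. Non-overlap was common in these data, at 49.8% of all genes tested, with 24.3% higher and 25.5% lower in KO.

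**Figure D2:**
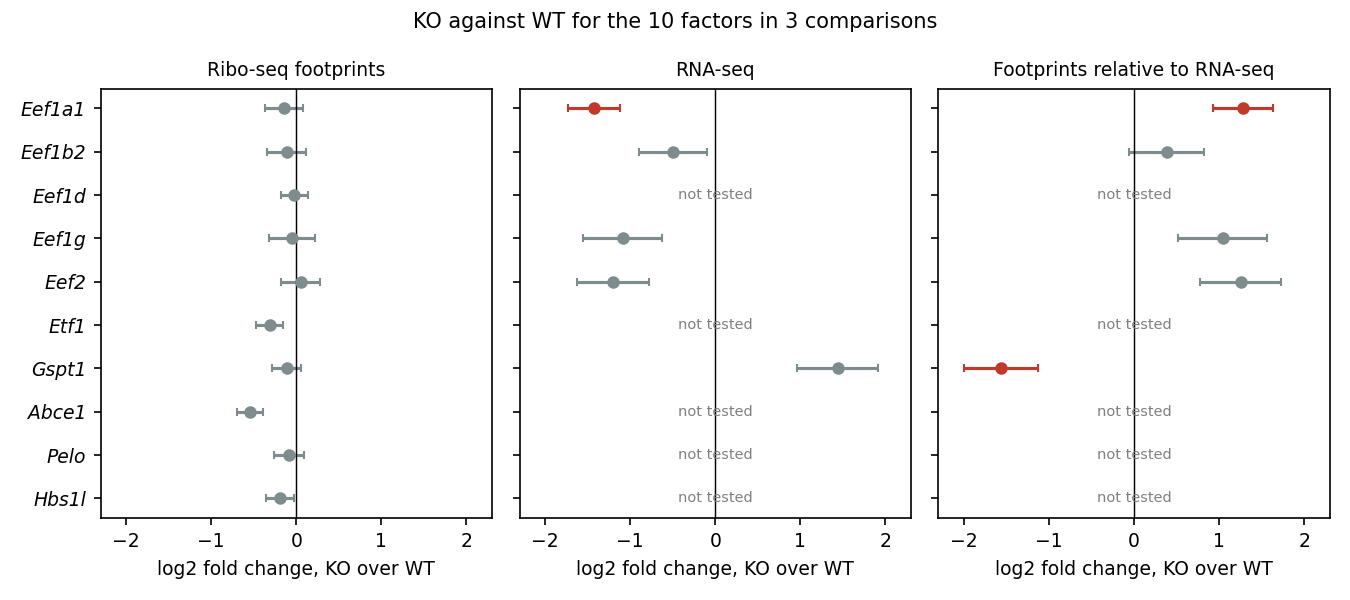
Log2 fold change of KO over WT with its standard error for footprints, RNA-seq and footprints relative to RNA-seq; red points had an adjusted p below 0.05 in edgeR and genes removed by the filter on low counts are marked as not tested. Footprint changes lie between -0.54 and 0.05, while Eef1a1 and Gspt1 stand on opposite sides of 0 in the other panels.

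Levels between genes were compared per length, in the deposited TPM, which relate footprints to the whole transcript length rather than the coding part. In the mean of the 4 footprint libraries Eef1a1 came first at 11755 ± 2087 TPM (SD, n = 4), followed by Eef2 at 1177 ± 215, Eef1g at 921 ± 234, Eef1b2 at 758 ± 161 and Eef1d at 626 ± 25.9 TPM. Then came Etf1 at 150 ± 23.0, Abce1 at 144 ± 34.1, Gspt1 at 106 ± 11.1, Pelo at 38.7 ± 3.51 and Hbs1l at 28.1 ± 2.98 TPM. The library ranges did not overlap between Eef1a1 and Eef2, between Eef1d and Etf1, between Gspt1 and Pelo, or between Pelo and Hbs1l. They did overlap for the other neighbours. Within single libraries Eef2 was above Eef1g, Eef1g above Eef1b2 and Abce1 above Gspt1 in 4 of 4, Eef1b2 above Eef1d in 3 of 4, and Etf1 above Abce1 in 2 of 4. This order rests on the deposited lengths. That of Gspt1 was 6824 bases, while its longest coding transcript in GENCODE M21 has 3716. In CPM Gspt1 was above both Etf1 and Abce1 in all 4 libraries, and Eef1g was not above Eef1b2 in each of them.

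Ratios within a library leave out the scaling between libraries. Eef1a1 TPM were 8.91 and 9.79 times those of Eef2 in KO and 10.5 and 10.98 times in WT, without overlap. They were 11.6 and 13.3 times those of Eef1g in KO and 12.2 and 14.99 times in WT, with overlapping libraries. Eef1g to Eef1b2 was 1.29 and 1.19 in KO and 1.24 and 1.11 in WT, with overlapping libraries. Eef1d to Eef1b2 ranged more widely, 0.786 and 0.926 in KO and 0.675 and 1.01 in WT. So did Eef1g to Eef1d, with 1.645 and 1.285 in KO and 1.838 and 1.096 in WT.

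The ratio of Etf1 to Gspt1 TPM, the partners in termination, was 1.34 and 1.30 in KO and 1.53 and 1.49 in WT, without overlap. Its level rests on the deposited length of Gspt1, and in CPM Gspt1 was above Etf1 in every footprint library. Abce1 to Etf1 was 0.890 and 0.864 in KO and 1.02 and 1.03 in WT, and Abce1 to Pelo was 3.07 and 3.16 in KO and 4.34 and 4.22 in WT, both without overlap. Pelo to Hbs1l was 1.42 and 1.45 in KO and 1.30 and 1.36 in WT, here with the KO libraries above. Gspt1 to Hbs1l, with 3.66 and 4.09 in KO and 3.60 and 3.73 in WT, overlapped. Of the 12 ratios computed, 6 did not overlap between genotypes, a share near the 50.6% of all pairs among 12280 genes tested in footprints. With 2 libraries against 2 the smallest p an exact two-sided permutation test allows is 0.333, so no test of these ratios was made.

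**Figure D3:**
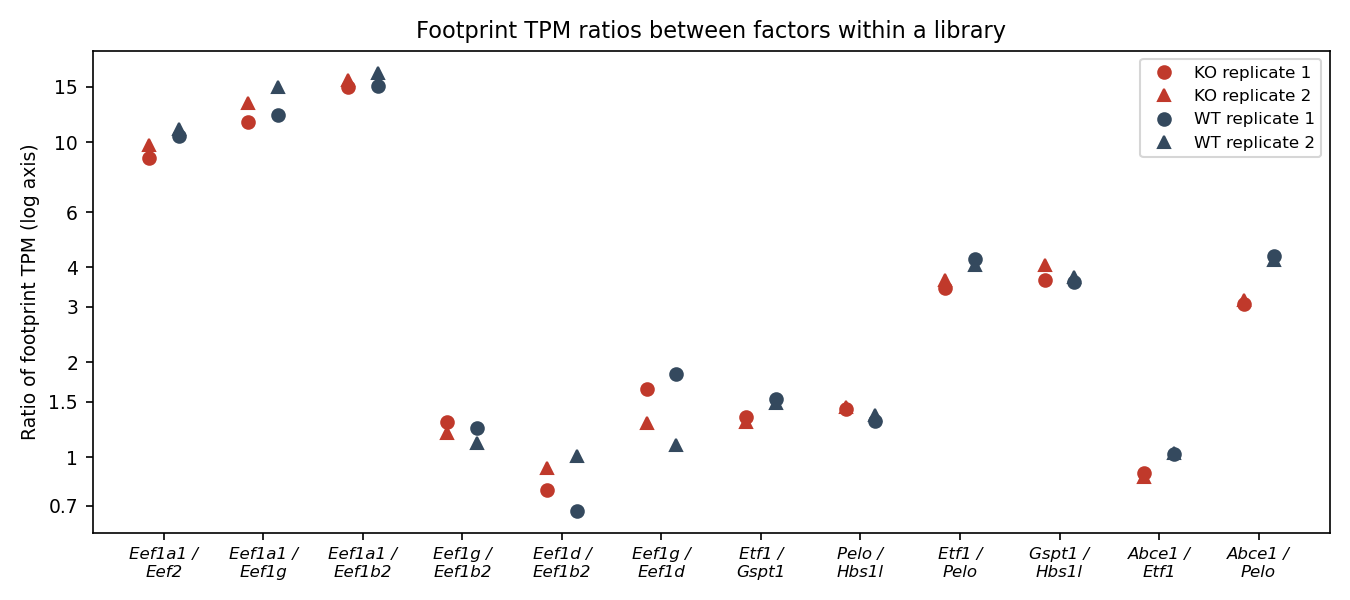
Ratio of footprint TPM between pairs of factors within each library, on a log axis, with KO in red left of WT in dark blue; circles are replicate 1 and triangles replicate 2. Abce1 stands at 3.07 and 3.16 times Pelo in KO and 4.34 and 4.22 times in WT, while the ratios among the eEF1 subunits overlap between genotypes.

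The elongation factors differed more between WT replicates than between genotypes. On the scale of log2(CPM + 0.5), replicate 1 minus replicate 2 came in KO to 0.14 for Eef1a1, 0.22 for Eef1b2, 0.34 for Eef1g and 0.27 for Eef2, and in WT to 0.59, 0.73, 0.89 and 0.65. Against the 3084 genes that averaged 500 or more footprint counts, these 4 WT differences stood at the 95.6th to 98.8th percentile, and the KO differences at the 62.3rd to 85.7th. The median of those genes was 0.06 in KO and 0.02 in WT. Eef1d differed by -0.03 in KO and 0.14 in WT. Termination, recycling and rescue factors ran the other way in WT, from -0.23 for Pelo to -0.16 for Hbs1l, and lay between -0.14 for Gspt1 and 0.02 for Hbs1l in KO. Their WT differences stood only at the 18.2nd to 25.6th percentile of the 3084 genes. The pyrimidine runs were 9, 22 and 8 bases in Eef1a1, Eef1g and Eef2, 15 in Eef1d and 8 in Abce1, and their part in these differences was not tested.

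**Figure D4:**
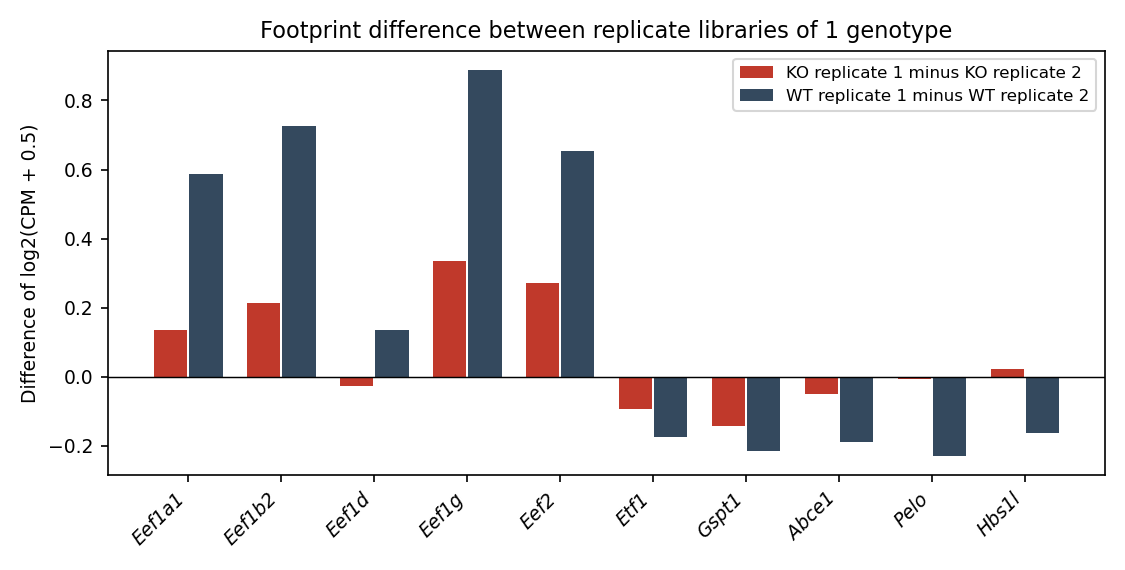
Footprint difference between replicate 1 and replicate 2 of the same genotype on the log2(CPM + 0.5) scale, KO bars left of WT bars, starting at 0. Eef1a1, Eef1b2, Eef1g and Eef2 reach 0.59 to 0.89 in WT, and the termination, recycling and rescue factors lie below 0 in WT.

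The fold changes of these elongation factors turned on single WT libraries. Without WT replicate 1 the log2 fold changes were 0.19 for Eef1a1, 0.30 for Eef1b2, 0.47 for Eef1g and 0.42 for Eef2, and without WT replicate 2 they were -0.41, -0.44, -0.43 and -0.24. None of these passed the test. Abce1 lay between -0.63 and -0.45 and Etf1 between -0.41 and -0.22 when any 1 library was left out.

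Genes whose footprints followed those of Eef1a1 and Abce1 most closely were found by the root-mean-square difference of centred log2(CPM + 0.5) over the 4 footprint libraries, within the same 3084 genes. For Eef1a1 they were 2700094K13Rik (0.019), Ajuba (0.029) and Arf1 (0.030), and for Abce1 Mrps31 (0.0077), Pcm1 (0.017) and Rybp (0.018). Over only 4 libraries such closeness is easily met: 63 genes came within 0.1 of Eef1a1 and 139 within 0.1 of Abce1.

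In the RNA-seq tables the members were thinly covered. These libraries came from a small RNA kit, and no source used here says whether RNA was fragmented or mRNA selected first. The values are counts in such libraries, and their relation to mRNA level was not tested. The 10 genes together had 101 and 147 counts in the KO and 270 and 273 counts in the WT libraries, which was 0.0661% and 0.0845% of KO and 0.128% and 0.125% of WT counts. Only 5 members passed the filter on low counts: Eef1a1, Eef1b2, Eef1g, Eef2 and Gspt1. Of these, 1 was called lower and none higher, where 6.37% of the 2087 genes tested were called (3.69% higher and 2.68% lower). The KO libraries of 4 of these 5 lay below both WT libraries and those of 1 above, where 51.8% of the genes tested did not overlap (30.1% above and 21.7% below).

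Eef1a1 fell in RNA-seq. It had 31.9 and 46 counts (209 and 265 CPM) in KO, against 136 and 122 counts (644 and 554 CPM) in WT, and edgeR gave -1.42 on the log2 scale (SE 0.31, adjusted p = 0.0214). The call was lost without KO replicate 1 (adjusted p = 0.101) and with limma on log2(TPM + 1) (0.0752). Its exons hold the annotated miRNA gene Gm26377 on the same strand (108 shared bases), which was not in the tables. Eef2 had 10 and 28 counts in KO and 49 and 59 in WT (log2 fold change -1.20, SE 0.42, adjusted p = 0.117), and without KO replicate 2 it was called, at -2.04 (adjusted p = 0.0156). Eef1g had 9 and 13 counts in KO and 32 and 26 in WT (-1.09, SE 0.47, adjusted p = 0.185), and Eef1b2 20.8 and 16.5 in KO and 30.3 and 36.8 in WT (-0.49, SE 0.40, adjusted p = 0.519).

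Gspt1 stood on the other side, with 19 and 32 counts in KO and 11.99 and 11 in WT, which did not pass the test (log2 fold change 1.44, SE 0.48, adjusted p = 0.0980). The exons of Gspt1, on the minus strand of chromosome 16, share 239 bases with the antisense RNA 2610020C07Rik, which had 41 and 41 RNA-seq counts in KO and 89 and 62 in WT. Whether counting used strand was not given in the sources used here, and reads of the 2 genes may not be told apart in the shared bases.

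The remaining members were near the limit of the RNA-seq libraries. Eef1d had 4 and 3 counts in KO and 2 and 6 in WT, Abce1 3 and 4 in KO and 7 and 5 in WT, and Etf1 2 and 2 in KO and 0 and 3 in WT. Hbs1l had 1 and 1 counts in KO and 2 and 4 in WT, and Pelo 0 and 1 in KO and 0 and 1 in WT. These 5 genes were not tested in the main RNA-seq fit. With no filter on low counts all 10 members were tested, and only Eef1a1 was called in edgeR. Counts this low limit what such a fit can detect. The antisense RNA 4930455C13Rik, which shares 266 exon bases with Hbs1l, had 42 and 29 counts in KO and 73 and 52 in WT, and 0 in every footprint library.

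**Figure D5:**
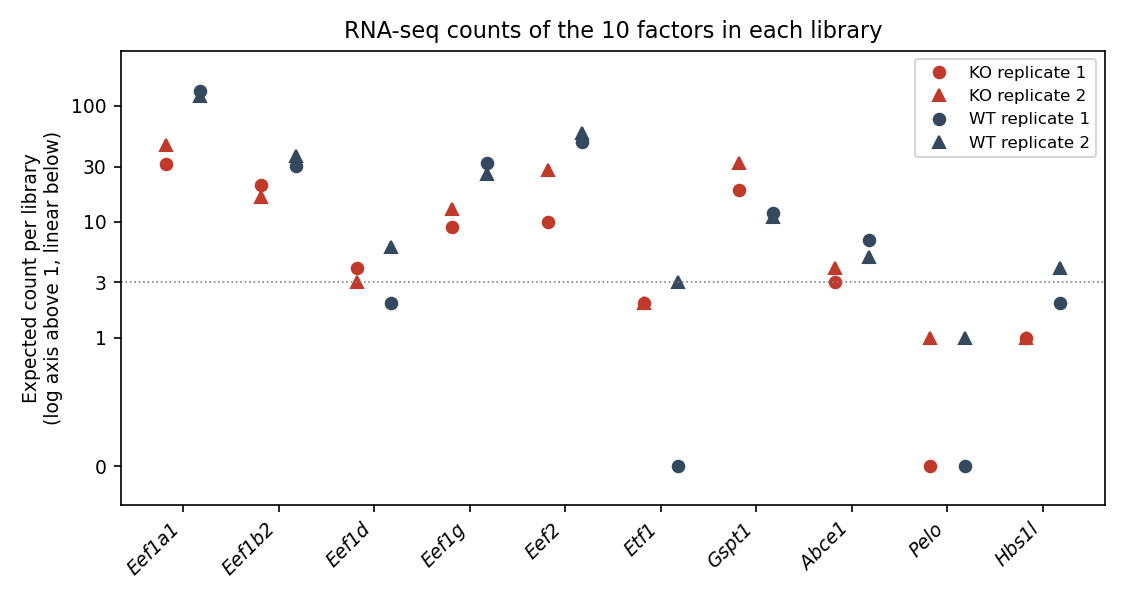
Expected RNA-seq counts of each factor per library, on an axis that is linear below 1 and logarithmic above, with KO in red left of WT in dark blue and a dotted line at 3 counts. Eef1a1 lies at 31.9 and 46 counts in KO and 136 and 122 in WT, and Pelo at 0 or 1 in every library.

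Translational efficiency sets the footprints of a gene against its RNA-seq counts, and its difference between KO and WT was tested in a single edgeR model of the 8 libraries by an assay-by-genotype term. It rose for Eef1a1 by 1.28 (log2 scale, SE 0.35, adjusted p = 0.0410) and fell for Gspt1 (-1.57, SE 0.43, adjusted p = 0.0418), 2 of the 5 members tested, where 8.85% of the 1458 genes tested were called (4.25% higher and 4.6% lower). The footprint fold changes of these genes were -0.14 for Eef1a1 and -0.11 for Gspt1, so the difference lay mainly in the RNA-seq counts, which were 11 to 136 per library. On the scale of log2(CPM + 0.5), mean footprints of Eef1a1 exceeded its mean RNA-seq level by 5.73 in KO and 4.51 in WT, and those of Gspt1 by 1.52 in KO and 3.15 in WT. Eef2 (1.25, SE 0.48, adjusted p = 0.123), Eef1g (1.04, SE 0.52, adjusted p = 0.248) and Eef1b2 (0.38, SE 0.44, adjusted p = 0.636) did not pass. Eef1a1 stayed below an adjusted p of 0.05 in 6 of 16 alternatives and Gspt1 in 5 of 15, with the same sign in all of them and adjusted p values from 0.0254 to 0.165 and from 0.0331 to 0.167, and leaving out a single library ended the call of Gspt1 in every case and of Eef1a1 in all but the one without WT Ribo-seq replicate 1.

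Some members have copies elsewhere in the genome that could share their reads. Transcripts of 18 annotated pseudogenes matched Eef1a1 at 90% identity or more over at least 200 bases. One of them, Gm6548, was in the tables and took 2.22% and 2.59% of the combined footprint counts in KO and 1.66% and 2.15% in WT. Eef1g had 5 such pseudogenes, Eef2 3, Eef1d 2, Hbs1l 3, and Eef1b2 and Abce1 1 each, none of them in the tables. Counts of Abce1, Pelo and Hbs1l were whole numbers in every library to within 0.005, and those of the other 7 were not. Eef1d shares 277 exon bases with Naprt on the same strand, which had 128 and 98 footprint counts in KO and 138 and 66 in WT. Eef1b2 and Eef2 each host annotated small nucleolar RNAs in their introns, and Eef1b2 shares 176 exon bases with the RNA gene Gm27390 on the same strand. Pelo shares 739 exon bases with the coding gene Gm49395 on the same strand and 468 with the antisense RNA Gm10734, neither of them in the tables, and lies inside Itga1 on the same strand with no shared exon bases, and Itga1 had 31 and 58 footprint counts in KO and 35 and 31 in WT.

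In the RefSeq promoter table (GRCm38.p6, 250 bases before to 50 after the start) 7 of the 10 genes had an entry. The palindrome TGACGTCA, a cyclic AMP response element that reads the same on both strands, was in the windows of Abce1 and Eef2. For members only the first entry was read. Over all genes, 2.03% of 27025 held the palindrome in any of their entries, which is a wider rule. The palindrome is shown in capitals because it lies in the windows of both, so the share over all genes is background and no test was made. Relative to the start its first base is at -10 in Abce1 and at 3, inside the transcript, in Eef2.
Abce1: tcattggcgtcgcggcgcaaTGACGTCAcc
Eef2: aggccgggcgtTGACGTCAgcggtctcttc
The stretches lie at chr8:79711741-79711770 (minus strand) and chr10:81176622-81176651 (plus strand).

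A further 52 genes of the same pathway, in 7 lists, were read from the same fits, and 0 of them were called in footprints in edgeR (median log2 fold change -0.11, against 0.006 over all genes tested; 36 negative). Footprint medians of chromosomes 6, 8 and 11 were -0.38, -0.22 and -0.25, and with chromosome medians removed 0 of the 52 were called and 37 were negative (median -0.12). Of 8 isoforms and modifiers of the elongation factors, the smallest p values were those of Eef2kmt, the eEF2 lysine methyltransferase, with 10.98 ± 0.0665 CPM in KO and 6.26 ± 0.407 CPM in WT (SD, n = 2 each; 0.82, adjusted p = 0.104 in edgeR), and of Mettl13, which methylates eEF1A (-0.68, adjusted p = 0.107). All 7 genes of diphthamide synthesis, the modification of eEF2, had negative fold changes with a median of -0.20, led by Dph3 (-0.51, adjusted p = 0.230) and Dph5 (-0.27, adjusted p = 0.476). Eif5a, which relieves slow peptide bonds, had 1911 ± 234 CPM in KO and 2508 ± 239 CPM in WT (SD, n = 2 each; -0.37, adjusted p = 0.311 in edgeR), and Dhps, which modifies it, stood at -0.37 (adjusted p = 0.388). With chromosome medians removed Eif5a, on chromosome 11, stood at -0.12 and Dhps, on chromosome 8, at -0.14.

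The list of termination and selenocysteine genes was led by the selenocysteine factors Eefsec (-0.33, adjusted p = 0.370 in edgeR) and Secisbp2 (-0.33, adjusted p = 0.430). All 5 of that list were negative. With chromosome medians removed 3 of the 5 were, Eefsec on chromosome 6 standing at 0.05 and Jmjd4 on chromosome 11, named after its values were seen, at 0.24. Denr, which helps remove tRNA from the small subunit after splitting, had 73.7 ± 6.86 CPM in KO and 101 ± 13.2 CPM in WT (SD, n = 2 each; -0.44, adjusted p = 0.212 in edgeR), and Eif2d, which acts at the same step, stood at -0.21 (adjusted p = 0.534). Of 16 genes of stalled ribosome rescue and quality control the smallest p values were those of Tcf25, a subunit of the ribosome quality control complex (-0.56, adjusted p = 0.0890), and Vcp, the ATPase that extracts its substrates (-0.43, adjusted p = 0.187). The 8 mitochondrial factors had a median of 0.003, with Mtrf1, a release factor homologue (-0.59, adjusted p = 0.216), and Ict1, a rescue factor of the mitochondrial ribosome (-0.43, adjusted p = 0.223), named by the smallest p. With chromosome medians removed Tcf25, on chromosome 8, stood at -0.34 (adjusted p = 0.301 in edgeR) and Ict1, on chromosome 11, at -0.18 (adjusted p = 0.661). Of these 52 genes, 10 were tested in RNA-seq with 0 called in edgeR. In translational efficiency 10 were tested and 1 was called, where 8.85% of the 1458 genes tested were called. It was Eef2kmt, which rose by 1.48 (SE 0.36, adjusted p = 0.0265 in edgeR). Its mean RNA-seq levels, 309 CPM in KO and 456 CPM in WT, were far above its footprints of 10.98 and 6.26 CPM. How this call fares in the alternative fits is not given here.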

How the data were processed

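Each of the 8 libraries came as a deposited RSEM gene table. Bowtie2 2.3.4.3, mm10 and RSEM are named in the submitters' processing notes. The sources used here do not give alignment, strand or filter settings. Per the file headers, the authors deposited expected counts, TPM and FPKM, with lengths per gene in other columns. FPKM values, deposited per the file headers, were not used.

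Expected counts were rounded and tested on all genes with edgeR 4.0.16 (robust quasi-likelihood, TMM, filterByExpr), each assay apart. Translational efficiency used genes that passed in both assays, with TMM factors from each assay. Standard errors came from F statistics. The threshold was an adjusted p of 0.05. Replicates differed by more than sampling noise (chi-square per degree of freedom 2.96 to 24.1). The pyrimidine run of Eef1b2 is not reported here. The steps were tested on simulated counts.

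The members and lists were chosen with earlier results of these data known. Named genes were all members, and in each wider list the called genes and the 2 smallest footprint p values. Alternatives were DESeq2 1.42.0, limma 3.58.1, other scalings and filters, a replicate block, chromosome medians and leaving out libraries.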

Additional observations from a re-analysis of the deposited data

How the results depend on the processing

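The counts of all called genes and of called members have unlike totals, 12315 and 10 in the main footprint fit, so their movements cannot be compared. Footprint calls were 301, and became 1110 with no filter on low counts, 186 at a mean count of at least 50, 172 with limma on log2(TPM + 1), 2960 with the replicate block and 189 to 761 when a library was left out. Members called in footprints stayed at 0 except under the replicate block, where Abce1 (-0.54, adjusted p = 9.71e-05 in edgeR) and Etf1 (-0.31, adjusted p = 0.0394) fell. That was 2 of 10 members, in a fit that called 24% of all genes tested. Same-numbered footprint libraries deviated together (correlation 0.433 across genes) and share a date-like tag in their deposited names, but no label ties a number to a day, and the unblocked fit is the one reported. The block left 1 member called in RNA-seq and 3 in translational efficiency, Eef2 added (1.31, adjusted p = 0.0485). RNA-seq calls were 133, and became 76 at a mean count of at least 50, 53 with DESeq2, 37 with limma and 73 to 242 without a library. RNA-seq members called were 1, and 0 with limma and 0 to 2 without a library. Translational efficiency calls were 129, and became 17 at a mean count of at least 50, 74 with limma and 15 to 120 without a library. Members called there were 2, and 0 with no filter, 1 at a mean count of at least 50, 1 with DESeq2, 0 with limma and 0 to 1 without a library. Fewer genes or samples entered some of these fits, and otherwise the cause was not tested. No called member changed sign. Without Rn45s in the totals, 13 of 20 member footprint levels moved by more than the SD of their 2 libraries, such as Eef1a1 in KO to 14369 CPM. RNA-seq depth limits 5 members to 0 to 7 counts per library.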
